A study of Mus musculus with 30 samples.

Results

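Described here are 35 genes of vascular smooth muscle that encode the contractile filaments, the switch that turns contraction on and off, the transcription factors behind these genes, and the scaffolds and adhesion proteins that tie the filaments to the membrane and matrix. They were chosen by name, were all listed in every file, and are 35 of the 14379 genes measured in all 30 libraries. Each library was made from total RNA of abdominal aorta, taken from wild-type (WT) C57BL/6 mice, 5 per group in 6 groups, sampled after 28 days of treatment. The groups were ethoxysanguinarine with angiotensin II (AngII+ETH), baicalin with angiotensin II (AngII+BAI) and gastrodin with angiotensin II (AngII+GAS), these compounds being given at 5 mg/kg/day, valsartan with angiotensin II (AngII+VAL), dosed at 10.4 mg/kg/day, the infusion without a compound (AngII), and saline (Control). Every group except Control received angiotensin II at 500 ng/kg/min, so each compound was seen only on top of the infusion. The study asked how the aorta of mice made hypertensive with this hormone differed with and without the compounds. Levels are FPKM, sequenced fragments scaled by transcript length and by library size, summed over the transcripts of a gene, so that levels can be set against each other between genes. No label says that the 5 libraries of a group came from separate animals, so the tests measure only the spread between these libraries.

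Smooth muscle of the artery wall contracts when calcium activates myosin light chain kinase, which phosphorylates the regulatory light chain of smooth muscle myosin. Myosin phosphatase reverses that step, and the small GTPase RhoA, through the kinases Rock1 and Rock2, holds the phosphatase back. Angiotensin II acts on this switch within minutes through its type 1 receptor, the receptor that valsartan blocks. The filament genes are known targets of serum response factor (SRF) and its coactivator myocardin, which act through a short A/T-rich DNA motif, the CArG box. Smooth muscle cells can leave the contractile state in injured arteries, with less of these transcripts and more of matrix and migration genes.

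The promoters below are shown because the CArG box is what the filament genes are known to share. The choice of the 35 genes did not use sequence, but it took in known SRF targets. The CArG share below is therefore no independent finding. Each is the 250 bases before the RefSeq start of the gene in build GRCm38.p6, 5′ to 3′ on the strand of the gene, with CArG boxes and CArG-like boxes (1 C or G within the A/T core) in capitals.
Acta2: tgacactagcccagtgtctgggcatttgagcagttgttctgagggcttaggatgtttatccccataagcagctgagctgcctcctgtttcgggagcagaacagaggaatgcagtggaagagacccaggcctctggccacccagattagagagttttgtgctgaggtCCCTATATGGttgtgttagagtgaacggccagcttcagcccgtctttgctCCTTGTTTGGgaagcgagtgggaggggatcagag
Myl9: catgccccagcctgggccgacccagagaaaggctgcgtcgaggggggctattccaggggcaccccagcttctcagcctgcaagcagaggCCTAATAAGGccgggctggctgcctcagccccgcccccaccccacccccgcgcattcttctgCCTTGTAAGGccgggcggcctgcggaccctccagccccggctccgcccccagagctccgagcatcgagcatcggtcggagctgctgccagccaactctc
Srf: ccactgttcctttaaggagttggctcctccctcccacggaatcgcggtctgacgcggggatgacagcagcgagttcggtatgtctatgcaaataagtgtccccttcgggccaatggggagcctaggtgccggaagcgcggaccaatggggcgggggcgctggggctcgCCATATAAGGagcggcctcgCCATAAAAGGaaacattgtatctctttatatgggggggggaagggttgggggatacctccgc
Fhl2: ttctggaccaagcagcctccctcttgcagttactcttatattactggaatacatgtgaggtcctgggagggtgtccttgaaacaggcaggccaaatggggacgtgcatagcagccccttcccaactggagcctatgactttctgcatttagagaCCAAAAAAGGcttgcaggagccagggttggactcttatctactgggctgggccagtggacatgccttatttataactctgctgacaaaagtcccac
The windows are chr19:34255374-34255623, minus strand, for Acta2, chr2:156775214-156775463, plus strand, for Myl9, chr17:46556163-46556412, minus strand, for Srf, and chr1:43196762-43197011, minus strand, for Fhl2. The RefSeq starts differ from those of GENCODE M21, from which the gene coordinates below are taken. Each window overlaps the coordinates of its gene, those of Acta2 and Fhl2 for most of their length. Acta2 held 2 CArG-like boxes, Myl9 held 1 CArG box and 1 CArG-like box, Srf held 2 CArG boxes and Fhl2 held 1. A further Fhl2 window, chr1:43163962-43164211, not shown, also held a CArG box. A window was to hand for 29 of the 35 genes. Of these 29 genes, 7 held a CArG box on either strand (24.1%), namely Fhl2, Myl9, Cnn2, Ldb3, Filip1l, Srf and Fhl1, against 1.62% of the 27025 genes with a window of this length. CArG-like boxes were in 4 member genes (13.8%), Acta2, Myl9, Synm and Pdlim3, against 8.33% of all genes. The TATA motif TATAAA was in 5 member genes (17.2%), against 14.3% of all genes, and CATTCC, the core of sites for the TEAD factors, was in 6 (20.7%), against 14.4%. These counts describe letters in the windows and are no evidence of binding.

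The libraries held 69.8 to 80.8 M reads, read off from the steps between low values, and 3 reads, taken as the limit of detection, in 2 kb of transcript came to 0.0186 to 0.0215 FPKM. The labelled tissue was checked on 6 other smooth muscle genes, Cald1, Tpm1, Tpm2, Flna, Vcl and Actn1, of which none was at 0 in any library. Their summed level was 817 to 1636 FPKM in AngII+ETH, 609 to 1832 in AngII+BAI, 739 to 1709 in AngII+GAS, 966 to 1489 in AngII+VAL, 1177 to 1459 in AngII and 892 to 1454 in Control. Several libraries stood apart. In AngII+BAI 3 the member genes lay at a median of -1.33 from their mean over 30 libraries, on the log2(FPKM + 1) scale, and in AngII+BAI 5 at -0.94. AngII+GAS 1 was at -0.62, while AngII+GAS 5 was at 0.74 and AngII+ETH 4 at 0.63, and the other 25 libraries lay between -0.27 and 0.45. The medians of the members in AngII+BAI, and the values of members and called genes that those libraries move most, are given also without libraries 3 and 5. These libraries were picked after the levels were seen, as the lowest for the members. Leaving them out was bound to raise the AngII+BAI medians, so those values are a description and no independent check. Markers of fat tissue differed in some of the libraries that stood apart. All 7 brown and 6 white adipocyte markers were listed and none was at 0 in any library. The brown sum ranged over 769.9 to 3742 FPKM in AngII+ETH, 965 to 4163 in AngII+BAI, 1299 to 5719 in AngII+GAS, 1371 to 3393 in AngII+VAL, 543 to 2916 in AngII and 1237 to 3806 in Control. The white sum ranged over 3169 to 4738 FPKM in AngII+ETH, 2405 to 6112 in AngII+BAI, 2272 to 6772 in AngII+GAS, 2697 to 4679 in AngII+VAL, 2932 to 5033 in AngII and 4008 to 4828 in Control. AngII+GAS 1, low for the members, held the highest of both sums. AngII+GAS 5, high for the members, held the lowest white sum beside a brown sum of 1299 FPKM, and AngII+ETH 4 held the lowest brown sum of its group. The low AngII+BAI 3 and 5 were at 1487 and 965 FPKM brown and at 4231 and 2405 FPKM white. The part of fat in the levels of the members was not tested. Over all genes, the median fold change (log2) lay over 0.1 from 0 in 4 comparisons, at 0.11 for AngII against Control, -0.17 for AngII+GAS against AngII, -0.12 for AngII+VAL against AngII and 0.14 for AngII+BAI against AngII+GAS, and nearer 0 after quantile normalization (-0.02, 0.01, 0.00 and 0.00 in the same order), so member medians are given beside the median of all genes.

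**Figure D1:**
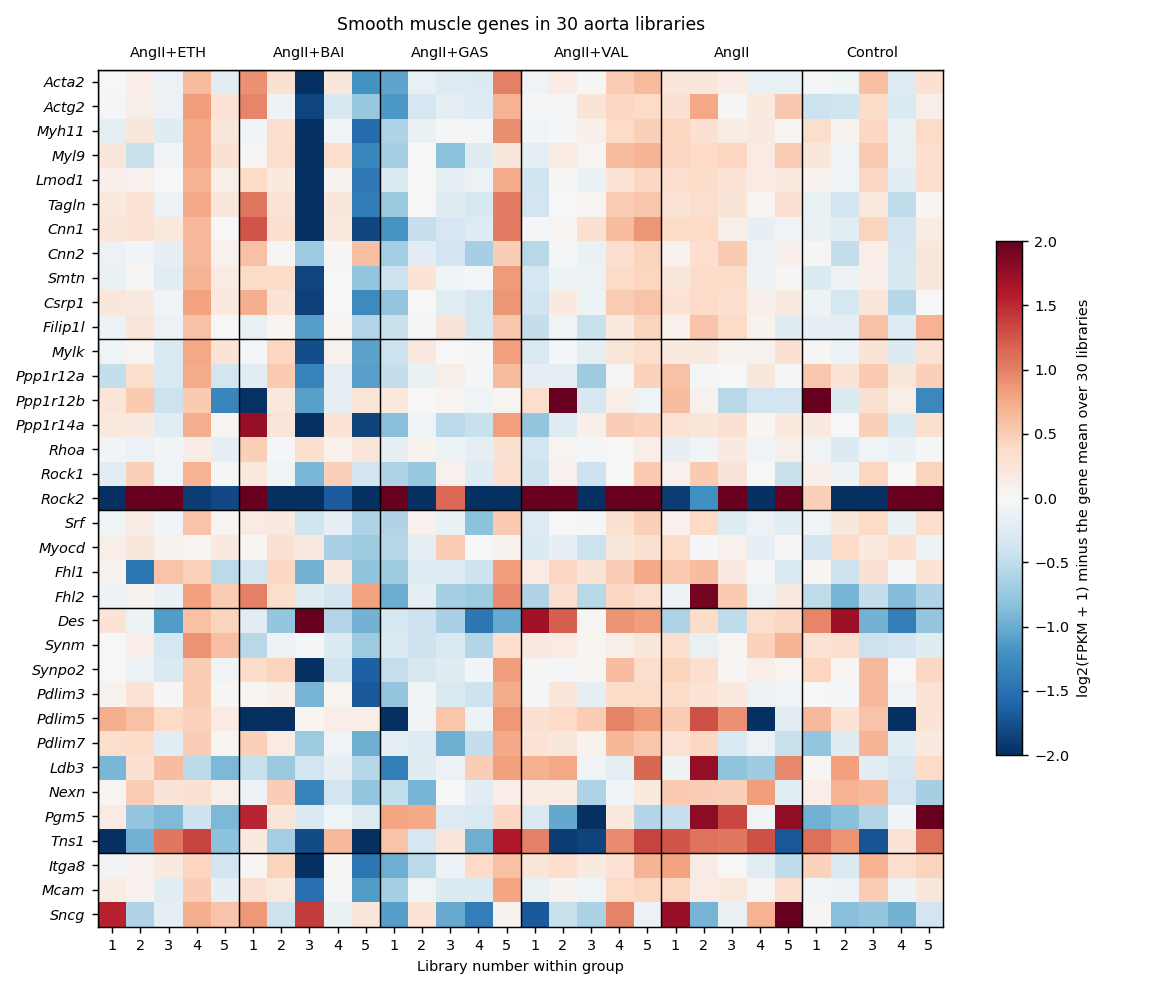
Each row is 1 of the 35 genes, in blocks by role (filament, switch, transcription, scaffold, adhesion), and each column 1 of the 30 libraries in their 6 groups; colour is log2(FPKM + 1) minus the mean of that gene over the 30 libraries, cut at -2 and 2. Libraries 3 and 5 of AngII+BAI are dark blue over most rows, library 5 of AngII+GAS is red, and Rock2, Tns1, Pdlim5, Pgm5 and Sncg vary library by library within the groups.

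No member gene differed between groups past the threshold. limma, fitted over all 13223 genes tested with Benjamini-Hochberg adjustment at 0.05, called 0 of the 35 in each of the 12 comparisons and 0 in a moderated F test over the 6 groups. limma was the only tool run, because the files hold no counts. Background shares in all 13223 genes were 0% called for AngII against Control, AngII+ETH against AngII, AngII+VAL against AngII, AngII+ETH and AngII+VAL against Control, each comparison between compounds, and the F test. They were 0.333% for AngII+BAI against AngII, 0.0151% for AngII+GAS against AngII, 1.44% for AngII+BAI against Control and 0.00756% for AngII+GAS against Control. The 190 genes behind the 1.44% became 10 to 17 when Control 1, 2, 3 or 4 was left out. Leaving out 1 AngII+BAI library gave 29 calls for library 1, 954 for library 2, 20 for library 3, 651 for library 4 and 8 for library 5. At an unadjusted p under 0.05 the members counted 2 of 35 for AngII against Control (11.2% of all genes), 1 for AngII+ETH against AngII (3.41%), 12 for AngII+BAI against AngII (14.6%), 4 for AngII+GAS against AngII (13.7%) and 2 for AngII+VAL against AngII (10.8%). Against Control they counted 1 for AngII+ETH (5.18%), 9 for AngII+BAI (19%), 0 for AngII+GAS (3.70%) and 0 for AngII+VAL (3.84%). Between compounds at the same dose they counted 8 for AngII+BAI against AngII+ETH (13.6%), 1 for AngII+BAI against AngII+GAS (20.3%) and 1 for AngII+ETH against AngII+GAS (3.89%). The F test gave 2087 of 13223 genes at an unadjusted p under 0.05 (15.8%). In bulk tissue, fewer smooth muscle cells and less RNA per cell cannot be told apart.

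After the infusion without a compound, the members lay about where all genes lay. Their median log2 fold change for AngII against Control was 0.13, beside 0.11 for all genes, with 25 genes above 0 and 10 below (21 and 14 after quantile normalization). For AngII+ETH against AngII the median was -0.05, beside -0.09 for all genes, with 13 above 0 and 22 below, and for AngII+VAL against AngII it was -0.10, beside -0.12, with 12 above and 23 below. The median for AngII+GAS against AngII was -0.33, beside -0.17 for all genes, with 1 gene above 0 (Ppp1r12b) and 34 below (6 and 29 after quantile normalization). It was -0.53 without AngII+GAS 5 and -0.17 without AngII+GAS 1. Leaving out 1 library at a time, the median ranged from -0.18 (without AngII+ETH 4) to 0.0022 (without AngII+ETH 3) for AngII+ETH and from -0.20 (without AngII+VAL 5) to -0.0014 (without AngII+VAL 1) for AngII+VAL, both against AngII. In AngII+BAI against AngII it was -0.62, beside -0.01 for all genes, with 1 gene above 0 (Rhoa) and 34 below. Without AngII+BAI 3 and 5 that median was -0.12. These comparisons share the AngII libraries.

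Set against saline, the compound groups had medians of 0.04 for AngII+ETH (0.02 for all genes; 19 above 0 and 16 below, 23 and 12 with libraries set to equal sums outside the mitochondrial genome), -0.48 for AngII+BAI (0.09), -0.19 for AngII+GAS (-0.05) and 0.09 for AngII+VAL (-0.01). AngII+BAI against Control had 5 genes above 0 and 30 below, AngII+GAS 7 and 28, and AngII+VAL 21 and 14. The AngII+GAS median against Control was -0.42 without AngII+GAS 5 and -0.05 without AngII+GAS 1. The AngII+VAL median was -0.0030 without AngII+VAL 5 and 0.20 without AngII+VAL 1, and the AngII+ETH median turned to -0.05 without AngII+ETH 4 or Control 4. Without AngII+BAI 3 and 5 the AngII+BAI median against Control was 0.04. Between the compounds given at the same dose, AngII+BAI against AngII+ETH had a median of -0.48 (0.07 for all genes; 4 above and 31 below), and AngII+BAI against AngII+GAS of -0.32 (0.14; 8 above and 27 below, 4 and 31 after quantile normalization). Without AngII+BAI 3 and 5 these medians were 0.03 and 0.25. AngII+ETH against AngII+GAS had a median of 0.32 (0.08 for all genes), with 27 genes above 0 and 8 below, and of 0.15 without AngII+GAS 1 and 0.49 without AngII+GAS 5. These comparisons share the Control libraries or those of a compound group.

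The filament genes were among the most abundant members. Acta2 (chr19:34241090-34255590, minus strand), the smooth muscle actin and the most abundant member, averaged 4003 ± 1004 FPKM in AngII+ETH, 3652 ± 2446 in AngII+BAI, 3735 ± 2156 in AngII+GAS, 4476 ± 959 in AngII+VAL, 3884 ± 517 in AngII and 4062 ± 1008 in Control (SD, n = 5 each). For Acta2 the spread differed more between groups than the means did. AngII+BAI and AngII+GAS had the widest SDs and AngII the narrowest. Library by library, Acta2 was at 6933, 4545, 869, 4308 and 1603 FPKM in AngII+BAI, against 4331, 4302, 4139.7, 3312 and 3335 FPKM in AngII and 3639, 3454, 5585, 3083 and 4548 FPKM in Control. The AngII+BAI libraries lay on both sides of the AngII range, with libraries 1 and 2 above it, library 4 within it and libraries 3 and 5 below it. In AngII+GAS the values were 1770.3, 3342, 3091, 3037 and 7433 FPKM, with library 5 the highest of all 30.

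Myh11 (chr16:14194535-14291372, minus strand), the smooth muscle myosin heavy chain, was at 435, 571, 69.0, 437 and 155 FPKM in AngII+BAI, against 610.2, 555, 502, 509.9 and 461 FPKM in AngII and 573, 474, 603, 414 and 586 FPKM in Control. Libraries 1, 2 and 4 of AngII+BAI lay in or near the AngII range and libraries 3 and 5 far under it, so the groups overlapped. Myh11 averaged 522 ± 158 FPKM in AngII+ETH, 333 ± 212 in AngII+BAI, 489.9 ± 216 in AngII+GAS, 517 ± 90.2 in AngII+VAL, 528 ± 56.8 in AngII and 529.9 ± 82.2 in Control. For AngII+BAI against AngII the log2 fold change of Myh11 was -1.02 (SE 0.38, adjusted p = 0.21), and it was -0.14 without libraries 3 and 5. Against AngII+ETH it was -0.96 (SE 0.38, adjusted p = 0.28) and against AngII+GAS -0.82 (SE 0.38, adjusted p = 0.21), or -0.08 and 0.06 without those libraries.

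Myl9 (chr2:156775420-156781658, plus strand), the regulatory light chain that the kinase phosphorylates, was at 929, 1169.9, 127, 1168 and 369.5 FPKM in AngII+BAI, against 1214, 1198, 1232, 1019 and 1298 FPKM in AngII. Its log2 fold change was -1.06 (SE 0.40, adjusted p = 0.22), or -0.13 without AngII+BAI 3 and 5. Libraries 1, 3 and 5 of AngII+BAI lay under every AngII library, 3 and 5 far under. The group means of Myl9 were 1059.6 ± 326 FPKM in AngII+ETH, 752 ± 479 in AngII+BAI, 771 ± 232 in AngII+GAS, 1127 ± 294 in AngII+VAL, 1192 ± 104 in AngII and 1045 ± 200.2 in Control. In AngII+GAS, Myl9 was at 575, 919, 516, 774 and 1069.5 FPKM, with 4 of 5 libraries under every AngII library and a log2 fold change of -0.68 for AngII+GAS against AngII.

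Tagln, the actin-binding protein transgelin, and Cnn1, smooth muscle calponin, had their highest values of the 30 libraries in AngII+BAI 1, at 2782 and 647 FPKM, and their lowest in AngII+BAI 3, at 269 and 47.3 FPKM. AngII+BAI thus held both ends of the series for these genes. Group means of Tagln were 1649 ± 379 FPKM in AngII+ETH, 1352 ± 1007 in AngII+BAI, 1416 ± 758 in AngII+GAS, 1529.8 ± 403 in AngII+VAL, 1589 ± 121 in AngII and 1222 ± 252 in Control. Cnn1 averaged 329.5 ± 56.0 FPKM in AngII+ETH, 283 ± 242 in AngII+BAI, 262 ± 169 in AngII+GAS, 359 ± 98.8 in AngII+VAL, 299 ± 52.4 in AngII and 269.8 ± 63.1 in Control. The less muscle-restricted calponin Cnn2 spread less in AngII+BAI, and was at 57.3 ± 15.05 FPKM in AngII+ETH, 60.0 ± 20.8 in AngII+BAI, 45.2 ± 17.5 in AngII+GAS, 55.1 ± 14.9 in AngII+VAL, 60.9 ± 10.8 in AngII and 50.5 ± 10.6 in Control.

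Actg2, the actin better known from visceral smooth muscle, averaged 96.7 ± 28.1 FPKM in AngII+ETH, 73.6 ± 52.2 in AngII+BAI, 73.4 ± 35.0 in AngII+GAS, 93.4 ± 14.1 in AngII+VAL, 106 ± 22.4 in AngII and 75.4 ± 19.6 in Control. Lmod1, leiomodin, which seeds actin filaments, averaged 101 ± 22.04 FPKM in AngII+ETH, 70.2 ± 43.8 in AngII+BAI, 91.3 ± 30.5 in AngII+GAS, 90.5 ± 20.2 in AngII+VAL, 105 ± 6.34 in AngII and 94.3 ± 18.2 in Control, and AngII was its tightest group. Csrp1, a LIM protein of the actin cytoskeleton, averaged 714 ± 177 FPKM in AngII+ETH, 530.4 ± 333 in AngII+BAI, 591 ± 285 in AngII+GAS, 666 ± 181 in AngII+VAL, 694 ± 55.3 in AngII and 530.3 ± 116 in Control. Smtn, smoothelin, a marker of the contractile state, averaged 229 ± 61.4 FPKM in AngII+ETH, 184 ± 93.3 in AngII+BAI, 235 ± 85.4 in AngII+GAS, 219 ± 52.1 in AngII+VAL, 236 ± 33.5 in AngII and 199 ± 32.4 in Control. Filip1l, filamin A interacting protein 1-like, averaged 78.5 ± 17.6 FPKM in AngII+ETH, 57.8 ± 17.8 in AngII+BAI, 73.2 ± 21.3 in AngII+GAS, 69.4 ± 19.6 in AngII+VAL, 81.8 ± 18.1 in AngII and 81.3 ± 27.2 in Control. Of these 5 genes, only for Filip1l was the AngII+BAI mean further from the AngII mean than the SD in AngII+BAI. Between compounds at the same dose, the log2 fold change for AngII+ETH against AngII+GAS was 0.23 (95% interval -0.58 to 1.04) in Acta2 and 0.14 (95% interval -0.64 to 0.91) in Myh11, intervals that leave room for differences in either direction.

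**Figure D2:**
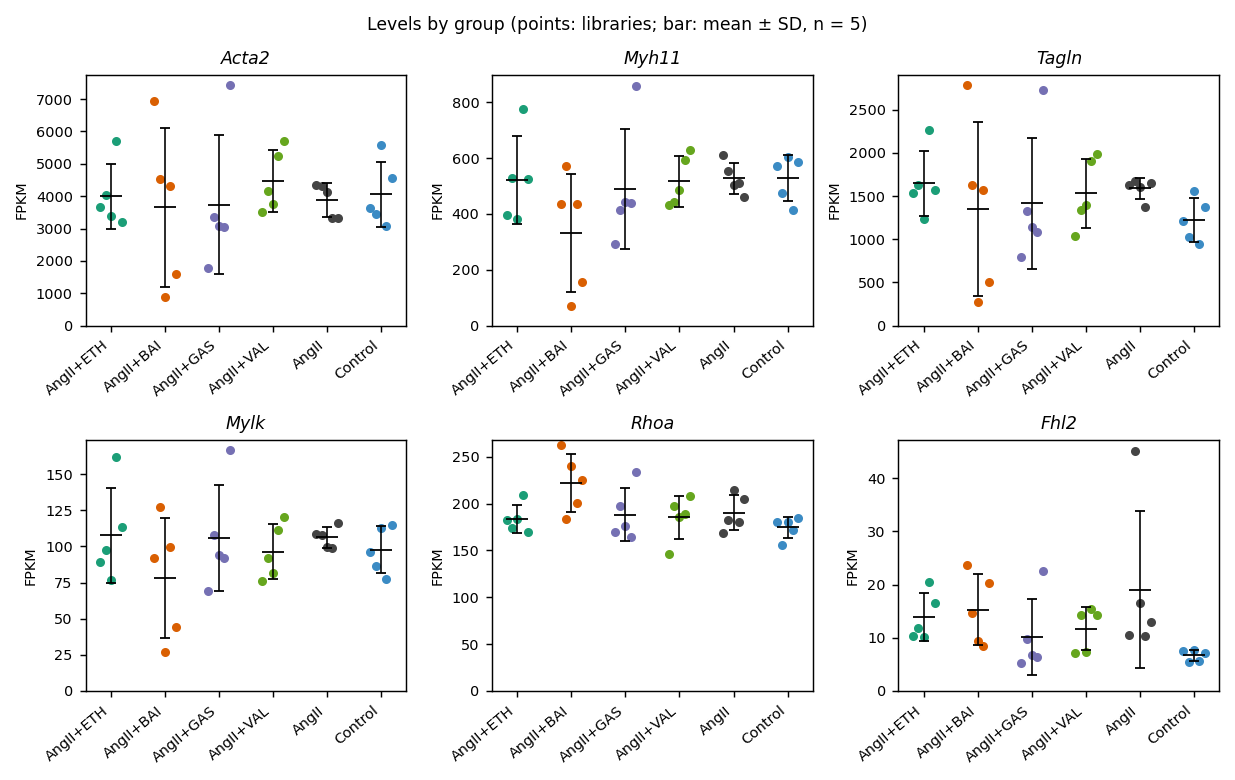
FPKM of 6 members, 1 point per library and 5 per group, with the mean and SD as bars; the vertical axes start at 0. Acta2, Myh11, Tagln and Mylk spread most in AngII+BAI and AngII+GAS, with libraries 3 and 5 of AngII+BAI lowest and library 5 of AngII+GAS high, while Rhoa stays between 146.5 and 262 FPKM and Fhl2 lies over every Control library in AngII, AngII+ETH and AngII+BAI.

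In AngII+BAI 3 the filament genes were not all equally low. Relative to the median of each gene in the other 29 libraries, Myl9 was at 11.9%, Myh11 at 14.2%, Cnn1 at 15.9% and Cnn2 at 59.0%, and the median of the 11 filament genes was 23.1%. Beside them Rhoa was at 131% and Des at 508%. The same 11 genes had a median of 36.6% in AngII+BAI 5, where Cnn2 was at 151%. In AngII+GAS 5 their median was 173%, with all 11 over 100%, and in AngII+ETH 4 it was 156%, again with all 11 over 100%. AngII+BAI 1 was mixed: Cnn1 was at 220.2% and Tagln at 199.9%, while Myh11 was at 89.8% and Myl9 at 87.2%.

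Markers of macrophages were highest in AngII+BAI 3 and 5. All 10 macrophage markers were listed and none was at 0 in any library. Their sum was 3011 FPKM in AngII+BAI 3 and 2028 FPKM in AngII+BAI 5, against 235 to 1601 FPKM in the other 28 libraries. By group it ranged over 235 to 655 FPKM in AngII+ETH, 448 to 3011 in AngII+BAI, 367 to 644 in AngII+GAS, 294 to 1601 in AngII+VAL, 358 to 939 in AngII and 312 to 562 in Control. For AngII+BAI against AngII 10 of the 10 markers were above 0, with a median log2 fold change of 0.63 and none past the threshold. That median was -0.15 with those libraries left out, and 4 of 10 were then above 0. The part of the cell makeup in the low filament values of these libraries was not tested.

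**Figure D3:**
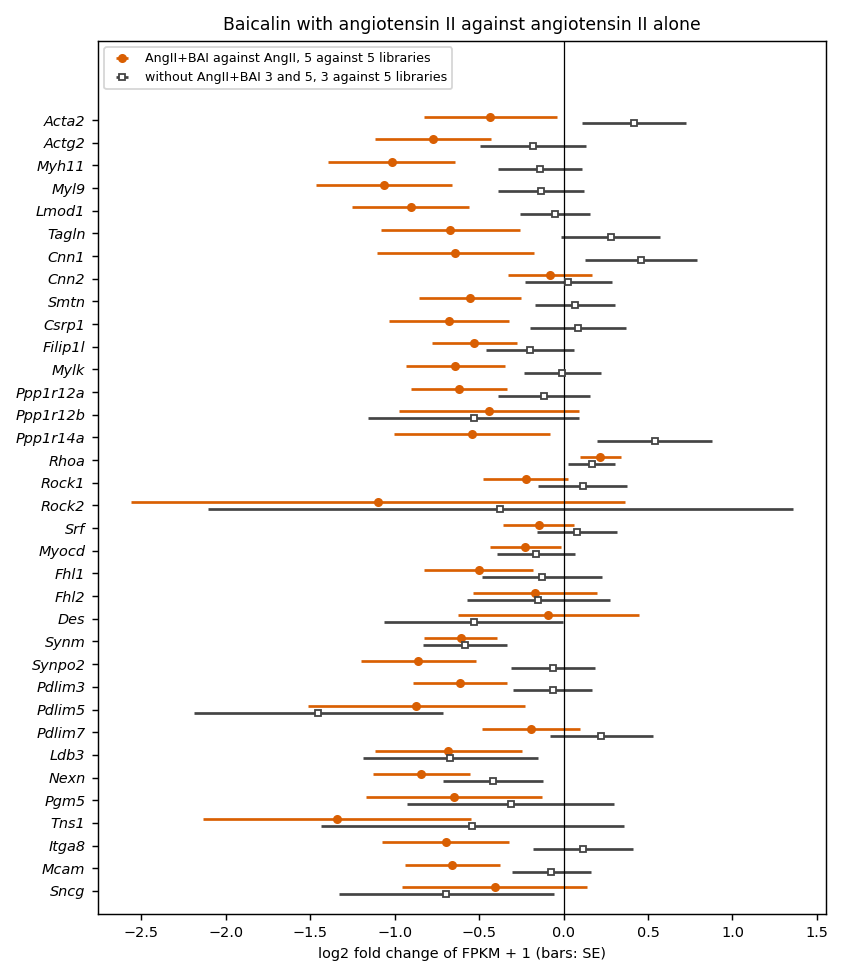
Log2 fold change of FPKM + 1 with its SE for AngII+BAI against AngII in the 35 members, from 5 against 5 libraries (filled) and without AngII+BAI 3 and 5, 3 against 5 libraries (open). With all libraries 34 members lie below 0 with a median of -0.62; without those libraries the median is -0.12 and Acta2, Tagln, Cnn1 and Ppp1r14a lie above 0, while Synm, Pdlim5, Ldb3 and Nexn stay on the low side.

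None of the 7 genes of the contraction switch passed the test. Mylk (chr16:34745210-35002420, plus strand), the myosin light chain kinase, was at 92.2, 127, 26.7, 99.9 and 44.5 FPKM in AngII+BAI, against 69.4, 108, 94.0, 92.2 and 167 FPKM in AngII+GAS, and its log2 fold change between them was -0.58 (SE 0.29, adjusted p = 0.26), or 0.05 without AngII+BAI 3 and 5. Mylk was at 108, 108, 99.3, 99.0 and 116 FPKM in AngII, the narrowest of its groups. The AngII+BAI libraries 1, 2 and 4 and the AngII libraries overlapped. Mylk averaged 108 ± 32.9 FPKM in AngII+ETH, 78.1 ± 41.4 in AngII+BAI, 106 ± 36.7 in AngII+GAS, 96.3 ± 18.98 in AngII+VAL, 106 ± 7.10 in AngII and 97.6 ± 16.4 in Control.

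Rhoa (chr9:108306129-108337934, plus strand), the GTPase at the head of the calcium-sensitising arm, was the steadiest member, with a coefficient of variation of 13.4% over the 30 libraries. It was at 262, 183, 239.7, 200.3 and 225 FPKM in AngII+BAI, against 169, 183, 214, 180.4 and 205 FPKM in AngII and 180.0, 156, 180.1, 172 and 185 FPKM in Control. Library 2 of AngII+BAI lay among the AngII and Control libraries, and the other 4 lay over every Control library. The log2 fold change of Rhoa was 0.34 for AngII+BAI against Control and 0.22 for AngII+BAI against AngII. Its unadjusted p was under 0.05 for AngII+BAI against Control and against AngII+ETH, the direction being opposite to that of most members. With libraries 3 and 5 left out, Rhoa was at 0.29 against Control, 0.17 against AngII and 0.22 against AngII+ETH. Rhoa averaged 184 ± 15.1 FPKM in AngII+ETH, 222 ± 31.3 in AngII+BAI, 188 ± 28.5 in AngII+GAS, 185 ± 23.3 in AngII+VAL, 190.2 ± 18.7 in AngII and 175 ± 11.4 in Control.

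Rock1, a kinase activated by RhoA, averaged 42.1 ± 12.2 FPKM in AngII+ETH, 34.6 ± 12.4 in AngII+BAI, 31.6 ± 10.2 in AngII+GAS, 36.2 ± 10.51 in AngII+VAL, 39.4 ± 9.59 in AngII and 41.4 ± 7.501 in Control. The smallest p for AngII+GAS against Control belonged to it, with a log2 fold change of -0.42 (SE 0.25, adjusted p = 1). Its paralog Rock2 (chr12:16894895-16987823, plus strand) had no such continuous level. Over the 30 libraries 16 were under 2 FPKM, 7 of them listed at 0, while 12 were over 20 FPKM and 2 lay between. Rock2 was at 0, 43.1, 38.9, 0.446 and 0.551 FPKM in AngII+ETH, 31.9, 0.182, 0.0121, 0.705 and 0.316 in AngII+BAI and 24.3, 0, 10.8, 0 and 0 in AngII+GAS. In AngII+VAL it was at 30.3, 33.3, 0, 40.3 and 44.3 FPKM, against 0.4401, 1.30, 33.1, 0 and 34.1 FPKM in AngII and 6.51, 0.234, 0, 31.2 and 35.5 FPKM in Control. High libraries were found in all 6 groups, with 4 of 5 in AngII+VAL and 1 of 5 in AngII+BAI. The sum rests on 1 transcript listed in every file. When a further transcript that is listed only in some files was added, Control 1 was at 33.2 FPKM and Control 2 at 25.8 FPKM, while AngII+VAL 3 was at 0.41 FPKM. How the division of reads between transcripts bears on these levels was not tested.

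Of the myosin phosphatase genes, the targeting subunit Ppp1r12a (chr10:108162193-108284475, plus strand) had the smallest p for AngII+BAI against Control. It was at 11.5, 19.8, 4.72, 11.6 and 5.82 FPKM in AngII+BAI, against 20.7, 13.3, 13.6, 15.9 and 13.2 FPKM in AngII and 20.1, 16.5, 19.9, 15.9 and 19.2 FPKM in Control. Library 2 of AngII+BAI reached the Control range and the other 4 lay under it. Against Control the log2 fold change was -0.87 (SE 0.28, adjusted p = 0.10), and -0.37 without AngII+BAI 3 and 5. Without AngII+BAI 2 it was -1.12 with an adjusted p of 0.0168, past the threshold, and 5 of the 35 members were called (Myh11, Synpo2, Ppp1r12a and Itga8 lower, Rhoa higher), beside 7.21% of all genes. Ppp1r12a also had the second-smallest p for AngII+VAL against Control, at 11.9, 11.6, 7.81, 13.7 and 18.95 FPKM in AngII+VAL and a log2 fold change of -0.53 (SE 0.28, adjusted p = 1). Over the groups Ppp1r12a averaged 14.1 ± 5.93 FPKM in AngII+ETH, 10.7 ± 5.99 in AngII+BAI, 14.1 ± 4.44 in AngII+GAS, 12.8 ± 4.06 in AngII+VAL, 15.3 ± 3.19 in AngII and 18.3 ± 1.96 in Control. These levels leave out a further protein-coding transcript that is listed only in some files. That transcript averaged 6.68 FPKM in AngII+BAI and 0 in each other group. The levels do hold a retained-intron transcript, which averaged 6.475 FPKM in AngII+BAI and 0.581 in Control. The protein-coding transcripts in the sum averaged 1.30 and 2.18 FPKM in AngII+BAI, against 4.565 and 11.8 in Control. The sum is therefore no measure of the coding mRNA alone. Over the alternative fits, the log2 fold change of Ppp1r12a for AngII+BAI against Control ranged from -1.12 to -0.29. The adjusted p ranged from 0.0168 to 0.643.

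Ppp1r12b, the related subunit, was under 6 FPKM in 28 libraries but at 23.1 FPKM in AngII+VAL 2 and 17.2 FPKM in Control 1, and lowest at 0.0580 FPKM in AngII+BAI 1. Its group medians were between 2.19 and 3.94 FPKM. The sum mixes transcript types. Its protein-coding transcript averaged 0.0052 FPKM in AngII+ETH and 7.03 in AngII+VAL. A processed transcript in the sum averaged 2.575 and 0 FPKM in the same order. Ppp1r14a, the phosphatase inhibitor CPI-17, was at 212, 74.1, 14.3, 75.8 and 16.6 FPKM in AngII+BAI, against 76.4, 74.1, 77.4, 64.2 and 72.3 FPKM in AngII and 71.1, 63.2, 87.7, 51.8 and 78.4 FPKM in Control. Ppp1r14a averaged 73.3 ± 18.99 FPKM in AngII+ETH, 58.8 ± 30.7 in AngII+GAS and 65.9 ± 22.3 in AngII+VAL. The AngII+BAI group held its highest and its lowest value of the 30 libraries, with library 1 at 299% and library 3 at 20.1% of the median of the other 29 libraries.

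Fhl2 was the 1 member whose groups did not overlap in more than 1 comparison. Fhl2 (chr1:43123074-43196984, minus strand), a LIM-domain cofactor that binds SRF and is itself an SRF target, was at 10.4, 11.8, 10.1, 20.5 and 16.5 FPKM in AngII+ETH, 23.7, 14.7, 9.40, 8.44 and 20.3 in AngII+BAI and 5.16, 9.74, 6.71, 6.46 and 22.6 in AngII+GAS. It was at 7.09, 14.2, 7.37, 15.3 and 14.3 FPKM in AngII+VAL, against 10.4, 45.1, 16.6, 10.2 and 12.9 FPKM in AngII and 7.59, 5.45, 7.76, 5.70 and 7.03 FPKM in Control. Every library of AngII, AngII+ETH and AngII+BAI lay over the highest Control library. AngII+GAS and AngII+VAL overlapped Control, each with 2 or more libraries inside or under its range. Groups that did not overlap in the higher direction made up 3.01% of all genes for AngII against Control, 1.29% for AngII+ETH against Control and 2.23% for AngII+BAI against Control, and 1 of 35 members in each. A count of 1 in 35 is near those shares and is no result about the members. These comparisons share the same 5 Control libraries, so they do not repeat each other independently. In the lower direction 0 members stood apart in those comparisons, as did 0.537%, 0.703% and 0.991% of all genes in the same order. The members had no such gene in AngII+ETH against AngII (0.0681% of all genes higher and 0.431% lower), AngII+BAI against AngII (0.303% and 1.4%), AngII+GAS against AngII (0.106% and 2.21%) or AngII+VAL against AngII (0.537% and 2.42%). Nor had they one in AngII+GAS against Control (0.265% and 0.817%), AngII+VAL against Control (0.461% and 1.15%), AngII+BAI against AngII+GAS (0.9% and 0.28%) or AngII+ETH against AngII+GAS (0.522% and 0.166%).

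The log2 fold change of Fhl2 was 1.16 (SE 0.36, adjusted p = 0.24) for AngII against Control, 0.91 (SE 0.36, adjusted p = 0.96) for AngII+ETH against Control and 0.99 (SE 0.36, adjusted p = 0.14) for AngII+BAI against Control. For AngII+GAS against AngII it was -0.80 (SE 0.36, adjusted p = 0.33), or -1.12 without AngII+GAS 5. The value for AngII+BAI against Control was 1.01 with libraries 3 and 5 left out. AngII 2 was far above the other AngII libraries for Fhl2, and without it the log2 fold change was 0.80 for AngII against Control and -0.44 for AngII+GAS against AngII. Cardiac muscle markers were high in the same library: their sum was 1161 FPKM in AngII 2, with Actc1 at 503, Myh6 at 177 and Tnni3 at 21.8 FPKM, and at most 36.3 FPKM in the other 29 libraries. Of the 6 cardiac markers, 6 were listed, 4 were at 0 in at least 1 library and 5 had a median under 1 FPKM. The sum ranged over 2.65 to 15.4 FPKM in AngII+ETH, 2.26 to 24.5 in AngII+BAI, 1.61 to 15.3 in AngII+GAS, 19.3 to 36.3 in AngII+VAL, 1.67 to 1161 in AngII and 2.77 to 17.98 in Control. The part of heart muscle RNA in the Fhl2 value of AngII 2 was not tested. AngII 2 was the highest AngII library for Fhl2, so leaving it out could not make AngII overlap Control.

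The other transcription genes differed less between groups. Srf itself averaged 17.4 ± 3.74 FPKM in AngII+ETH, 14.2 ± 3.53 in AngII+BAI, 14.4 ± 5.72 in AngII+GAS, 17.1 ± 3.74 in AngII+VAL, 15.7 ± 3.29 in AngII and 17.7 ± 3.10 in Control, with a log2 fold change of -0.34 (SE 0.21, adjusted p = 1) for AngII+GAS against Control, or -0.19 without AngII+GAS 4 and -0.52 without AngII+GAS 5. Myocd, myocardin, was the least abundant member, at 0.887 ± 0.106 FPKM in AngII+ETH, 0.602 ± 0.498 in AngII+BAI, 0.736 ± 0.476 in AngII+GAS, 0.680 ± 0.377 in AngII+VAL, 0.810 ± 0.262 in AngII and 0.873 ± 0.390 in Control. The Myocd sum rests on 1 transcript listed in every file, which is annotated as a processed transcript and not as protein-coding. The protein-coding transcript averaged 0.519 FPKM in AngII+GAS and 0 in each other group, and was left out. These levels therefore do not measure the mRNA of myocardin. Transcripts listed in every file held 62.1% of the Myocd FPKM summed over any file. Fhl1, a LIM protein of muscle, averaged 199.8 ± 94.0 FPKM in AngII+ETH, 174 ± 71.2 in AngII+BAI, 195 ± 95.5 in AngII+GAS, 272 ± 44.9 in AngII+VAL, 237 ± 61.2 in AngII and 209 ± 40.1 in Control. Its log2 fold change for AngII+ETH against AngII was -0.37 (SE 0.32, adjusted p = 0.99), and 1 library set most of it, with -0.05 without AngII+ETH 2 and -0.55 without AngII+ETH 3. In AngII+BAI 3, where the median filament gene was at 23.1%, Srf was at 75.3% and the processed Myocd transcript at 125% of the median of the other 29 libraries. In AngII+BAI 5 they were at 64.0% and 6.53%.

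The scaffold genes of the dense bodies and Z-disc-like structures had the smallest p-values for several comparisons. Nexn (chr3:152236982-152266350, minus strand), nexilin, a filament-binding protein, was at 4.55, 7.43, 1.38, 3.63 and 2.47 FPKM in AngII+BAI, 3.25, 2.15, 5.04, 4.09 and 5.58 in AngII+GAS and 5.63, 5.60, 2.90, 4.76 and 5.85 in AngII+VAL, against 7.64, 7.40, 7.30, 9.66 and 4.13 FPKM in AngII. Of the 5 AngII libraries, 4 lay over 7 FPKM, as 1 AngII+BAI library did, and no AngII+GAS or AngII+VAL library did. Nexn had a log2 fold change of -0.84 (SE 0.29, adjusted p = 0.18) for AngII+BAI, -0.72 (SE 0.29, adjusted p = 0.27) for AngII+GAS and -0.46 (SE 0.29, adjusted p = 0.58) for AngII+VAL, each against AngII, and 0.55 (SE 0.29, adjusted p = 0.98) for AngII+ETH against AngII+GAS. Without AngII+BAI 3 and 5 the first was -0.42. Nexn averaged 6.16 ± 0.911 FPKM in AngII+ETH, 3.89 ± 2.31 in AngII+BAI, 4.02 ± 1.38 in AngII+GAS, 4.95 ± 1.22 in AngII+VAL, 7.23 ± 1.98 in AngII and 5.80 ± 2.68 in Control.

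Synm (chr7:67730160-67759742, minus strand), the intermediate filament protein synemin, averaged 13.1 ± 0.671 FPKM in AngII+VAL. It was at 11.7, 12.9, 8.97, 22.8 and 18.4 FPKM in AngII+ETH, 7.69, 10.8, 11.5, 9.58 and 6.75 in AngII+BAI and 9.40, 8.54, 9.28, 7.45 and 15.1 in AngII+GAS, against 14.998, 10.52, 12.2, 16.5 and 19.5 FPKM in AngII and 14.6, 15.04, 8.49, 8.82 and 9.80 FPKM in Control. In AngII 4 of 5 libraries were over 12 FPKM, in AngII+BAI none was, and in AngII+GAS library 5 was. Synm had a log2 fold change of -0.61 (SE 0.22, adjusted p = 0.19) for AngII+BAI against AngII and -0.58 without AngII+BAI 3 and 5. It was -0.53 (SE 0.22, adjusted p = 0.27) for AngII+GAS against AngII and 0.36 (SE 0.22, adjusted p = 0.56) for AngII against Control. Between compounds it was -0.59 (SE 0.22, adjusted p = 0.26) for AngII+BAI against AngII+ETH and 0.51 (SE 0.22, adjusted p = 0.98) for AngII+ETH against AngII+GAS.

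Synpo2 (chr3:123076519-123236149, minus strand), synaptopodin 2, an actin-bundling protein of the Z-disc, was at 55.6, 58.8, 9.36, 32.2 and 13.2 FPKM in AngII+BAI, against 58.1, 44.3, 68.0, 42.8 and 57.7 FPKM in Control. Libraries 1 and 2 of AngII+BAI lay in the Control range and libraries 3, 4 and 5 under it. Synpo2 averaged 43.9 ± 10.1 FPKM in AngII+ETH, 33.8 ± 23.0 in AngII+BAI, 44.0 ± 19.1 in AngII+GAS, 50.2 ± 10.4 in AngII+VAL, 49.8 ± 6.78 in AngII and 54.2 ± 10.6 in Control. Its log2 fold change was -0.97 (SE 0.34, adjusted p = 0.13), or -0.17 without AngII+BAI 3 and 5. Without AngII+BAI 2 it was -1.24 with an adjusted p of 0.0255, past the threshold.

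Of the PDZ and LIM scaffolds, Pdlim5 (chr3:142239590-142395696, minus strand) was the 1 member whose groups did not overlap between compounds. It was at 4.44, 4.54, 23.3, 24.7 and 24.9 FPKM in AngII+BAI, against 37.9, 34.3, 30.1, 31.5 and 25.4 FPKM in AngII+ETH. The highest AngII+BAI library, 5, lay just under the lowest AngII+ETH library, also 5, and such non-overlap in the lower direction held for 0.545% of all genes (0.484% in the higher direction, with 0 members). Its log2 fold change was -1.25 (SE 0.64, adjusted p = 0.39), or -1.83 without AngII+BAI 3 and 5. Separate levels of Pdlim5 were seen elsewhere too, with 5 libraries under 5 FPKM (Control 4, AngII 4, AngII+GAS 1 and AngII+BAI 1 and 2) and the other 25 over 19 FPKM. With transcripts listed only in some files added, AngII+BAI 3 was at 46.1 FPKM, over every AngII+ETH library. Pdlim5 averaged 31.8 ± 4.68 FPKM in AngII+ETH, 16.4 ± 10.9 in AngII+BAI, 24.01 ± 15.1 in AngII+GAS, 35.6 ± 7.59 in AngII+VAL, 31.2 ± 20.04 in AngII and 25.9 ± 12.5 in Control.

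Pdlim3 averaged 107 ± 16.3 FPKM in AngII+ETH, 74.5 ± 33.5 in AngII+BAI, 89.7 ± 39.9 in AngII+GAS, 106 ± 17.8 in AngII+VAL, 104 ± 15.4 in AngII and 108 ± 24.5 in Control, and Pdlim7 averaged 36.5 ± 7.14 FPKM in AngII+ETH, 28.3 ± 11.6 in AngII+BAI, 28.5 ± 14.3 in AngII+GAS, 40.4 ± 7.12 in AngII+VAL, 31.1 ± 8.44 in AngII and 31.3 ± 12.5 in Control. Most of the Pdlim7 sum was a retained-intron transcript. It averaged 24.6 FPKM in AngII+ETH, 18.4 in AngII+BAI, 16.7 in AngII+GAS, 23.8 in AngII+VAL, 20.55 in AngII and 21.8 in Control. Ldb3, the Z-disc protein also called Cypher or ZASP, was at 2.31, 6.77, 8.60, 3.36 and 2.38 FPKM in AngII+ETH, against 4.83, 20.2, 2.59, 2.85 and 11.1 FPKM in AngII. AngII 2, the library with the cardiac markers, was the highest for Ldb3, and the AngII+ETH libraries lay within the AngII range or just under it. The log2 fold change was -0.50 (SE 0.43, adjusted p = 0.99), or -0.12 without AngII 2, -0.32 without AngII 5 and -0.76 without AngII 3. Ldb3 averaged 3.59 ± 0.699 FPKM in AngII+BAI, 5.67 ± 3.33 in AngII+GAS, 8.25 ± 3.49 in AngII+VAL and 6.19 ± 2.496 in Control. These Ldb3 levels leave out protein-coding transcripts listed only in some files. They averaged 3.035 and 4.85 FPKM in AngII+VAL, 0.583 and 0.653 in AngII+BAI and 0 in each other group. Transcripts listed in every file held 80.1% of the Ldb3 FPKM summed over any file.

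Pgm5 (chr19:24683016-24861855, minus strand), aciculin, an adherens-junction protein related to phosphoglucomutase, was at 9.09, 4.26, 3.86, 5.74 and 3.83 FPKM in AngII+ETH and 6.37, 3.42, 1.19, 9.43 and 4.96 FPKM in AngII+VAL, against 5.54, 29.995, 21.8, 7.55 and 29.7 FPKM in AngII and 3.60, 4.03, 4.99, 7.67 and 36.5 FPKM in Control. Of the 5 libraries over 20 FPKM in the series, 3 were AngII, 1 was AngII+BAI 1 and 1 was Control 5. The other 25 were under 15 FPKM. Pgm5 had a log2 fold change of -1.44 (SE 0.52, adjusted p = 0.99) for AngII+ETH against AngII, -1.62 (SE 0.52, adjusted p = 0.25) for AngII+VAL against AngII and 0.95 (SE 0.52, adjusted p = 0.51) for AngII against Control, the last being 1.48 without Control 5. AngII 1 and 4 overlapped both compound groups. Pgm5 averaged 11.0 ± 7.92 FPKM in AngII+BAI and 10.52 ± 4.01 in AngII+GAS.

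Tns1, tensin 1, which links actin to integrins, had 12 libraries under 90 FPKM and 18 over 120 FPKM, with low libraries in all 6 groups. It was at 24.2, 55.9, 231, 282 and 61.9 FPKM in AngII+ETH, against 265, 234, 229, 269 and 33.2 FPKM in AngII, with 3 of 5 low in AngII+ETH and 1 of 5 in AngII. Tns1 averaged 131 ± 117 FPKM in AngII+ETH, 84.8 ± 63.9 in AngII+BAI, 154 ± 110.3 in AngII+GAS, 155 ± 118 in AngII+VAL, 206 ± 98.2 in AngII and 169 ± 87.2 in Control. The log2 fold change for AngII+ETH against AngII was -0.90 (SE 0.79, adjusted p = 0.99), or -0.44 without AngII+ETH 1 and -1.47 without AngII 5.

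**Figure D4:**
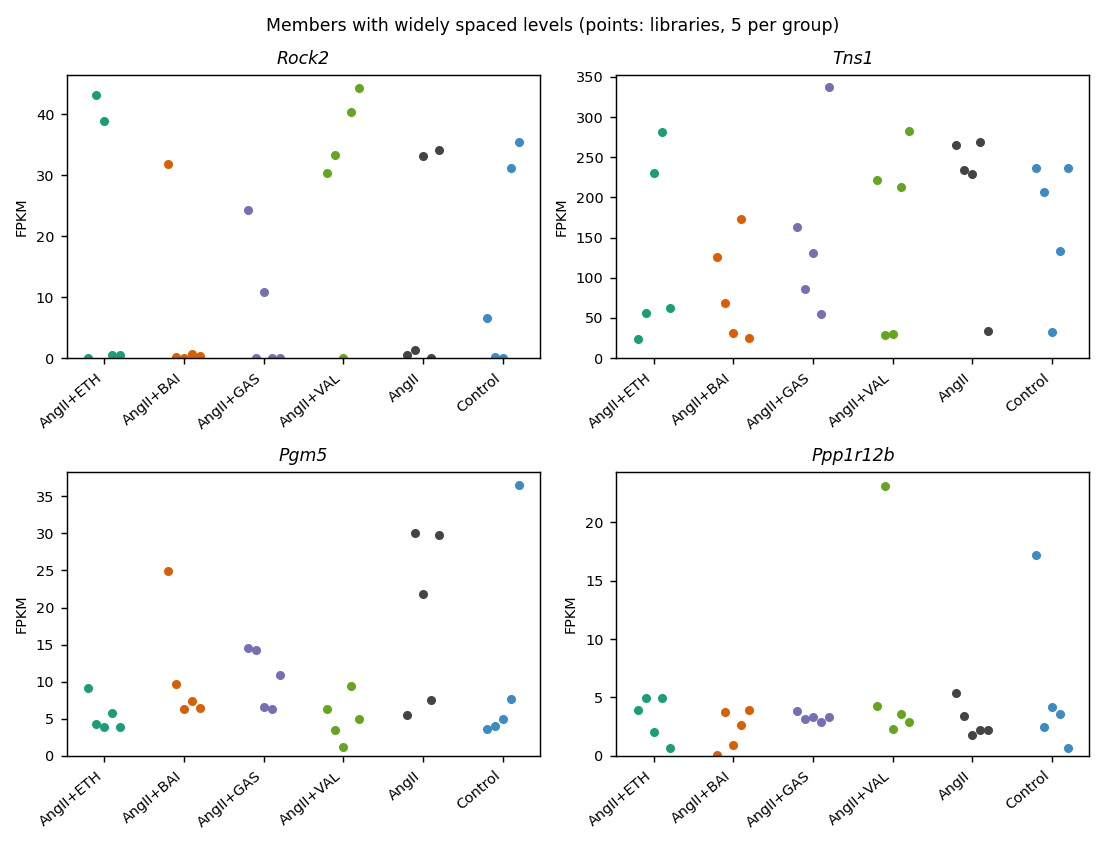
FPKM of Rock2, Tns1, Pgm5 and Ppp1r12b, 1 point per library and 5 per group, on axes that start at 0. The points lie in separate low and high levels inside the groups, as in Rock2, where 16 libraries are under 2 FPKM and 12 are over 20 FPKM.

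Des (chr1:75360329-75368579, plus strand), desmin, the intermediate filament protein of all muscle types, was at 194, 138, 60.5, 112 and 107 FPKM in AngII+VAL, against 38.6, 77.3, 41.8, 76.7 and 79.9 FPKM in AngII and 118, 199, 30.4, 22.2 and 34.4 FPKM in Control. AngII+VAL 1, 2, 4 and 5 lay over every AngII library and library 3 within their range, and Control 1 and 2 were also high. Des averaged 65.4 ± 25.0 FPKM in AngII+ETH, 82.8 ± 98.4 in AngII+BAI and 36.0 ± 10.7 in AngII+GAS, with a wide spread in AngII+BAI. Des had a log2 fold change of 0.92 (SE 0.54, adjusted p = 0.55) for AngII+VAL against AngII and 1.01 (SE 0.54, adjusted p = 1) for AngII+VAL against Control. Skeletal muscle markers were high in the same libraries. Of the 15 on the list 13 were listed in every file and 3 were at 0 in at least 1 library. Their sum ranged over 50.3 to 1574 FPKM in AngII+ETH, 71.1 to 3439 in AngII+BAI, 47.9 to 365 in AngII+GAS, 764 to 4041 in AngII+VAL, 23.9 to 180.3 in AngII and 47.4 to 4571 in Control. In AngII+BAI 3, where Des was the highest of the 30 libraries at 258 FPKM, the sum was 3439 FPKM, and in AngII+VAL 1 and Control 2 it was 4041 and 4571 FPKM beside Des at 194 and 199 FPKM. For AngII+VAL against AngII all 13 markers were above 0, with a median log2 fold change of 4.48 and none past the threshold. The part of skeletal muscle RNA in the Des values was not tested.

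Itga8, the integrin alpha 8 subunit of contractile smooth muscle, averaged 133 ± 27.5 FPKM in AngII+ETH, 99.7 ± 62.0 in AngII+BAI, 124 ± 52.8 in AngII+GAS, 161 ± 23.3 in AngII+VAL, 137 ± 50.9 in AngII and 163 ± 37.0 in Control. Its log2 fold change for AngII+BAI against Control was -0.98, with libraries 3 and 5 of AngII+BAI at 24.9 and 45.6 FPKM and the other 3 over 100 FPKM. Without those 2 libraries it was -0.17. Mcam, the adhesion molecule CD146 of smooth muscle and endothelium, averaged 192 ± 39.2 FPKM in AngII+ETH, 149.7 ± 72.9 in AngII+BAI, 178 ± 77.0 in AngII+GAS, 199.8 ± 37.6 in AngII+VAL, 211 ± 22.2 in AngII and 195 ± 39.0 in Control.

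Sncg (chr14:34370274-34374789, minus strand), gamma-synuclein, a protein of smooth muscle and of peripheral neurons, was at 13.7, 37.1, 14.8, 11.2 and 32.4 FPKM in AngII+GAS and 8.90, 22.1, 19.4, 61.9 and 28.1 FPKM in AngII+VAL, against 106, 15.6, 27.8, 50.5 and 193 FPKM in AngII and 31.3, 16.7, 17.5, 15.4 and 23.2 FPKM in Control. AngII 1, 4 and 5 were over every Control library, and AngII 2 and 3 lay in the Control range. Sncg averaged 46.9 ± 27.9 FPKM in AngII+ETH and 45.3 ± 24.6 in AngII+BAI. Sncg had a log2 fold change of 1.39 (SE 0.55, adjusted p = 0.33) for AngII against Control, -1.43 (SE 0.55, adjusted p = 0.26) for AngII+GAS against AngII and -1.18 (SE 0.55, adjusted p = 0.43) for AngII+VAL against AngII, the last being -0.73 without AngII 5. For AngII+ETH against Control it was 0.99 (SE 0.55, adjusted p = 0.98). Sympathetic neuron markers were high in the same AngII libraries, with sums of 953, 291 and 1236 FPKM in AngII 1, 4 and 5, against 76.5 and 17.9 FPKM in AngII 2 and 3. All 15 markers were listed, 9 were at 0 in at least 1 library and 10 had a median under 1 FPKM. The sum ranged over 54.1 to 665 FPKM in AngII+ETH, 61.5 to 221 in AngII+BAI, 34.8 to 140.4 in AngII+GAS, 10.2 to 424 in AngII+VAL, 17.9 to 1236 in AngII and 19.7 to 99.0 in Control. The part of nerve RNA in the Sncg values was not tested.

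**Figure D5:**
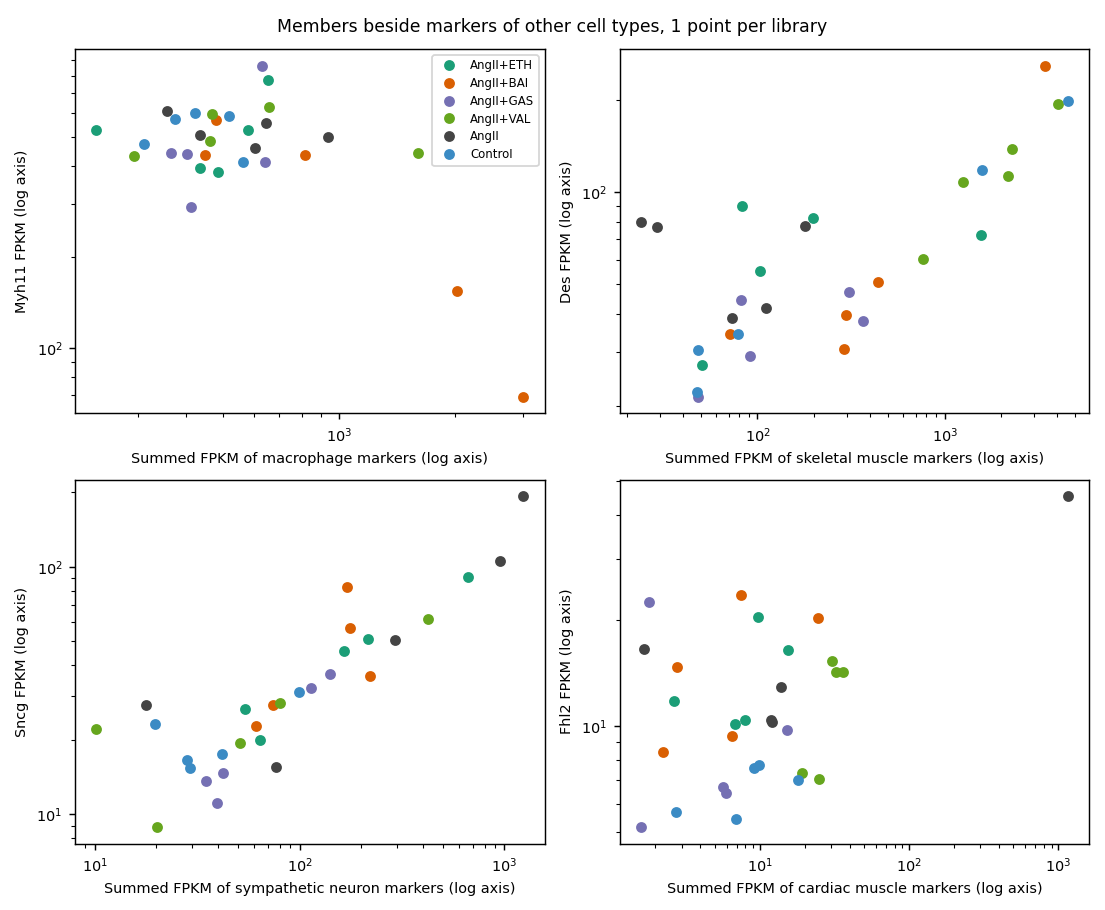
Each panel sets 1 member against the summed FPKM of the markers of another cell type, 1 point per library, both axes logarithmic: Myh11 with macrophage, Des with skeletal muscle, Sncg with sympathetic neuron and Fhl2 with cardiac muscle markers. The lowest Myh11 values, 69.0 and 155 FPKM in AngII+BAI 3 and 5, go with the highest macrophage sums, and AngII 2 stands alone for the cardiac markers and Fhl2.

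The other genes of these pathways were read from lists of genes that are not members, and few of them passed the test. Of the 15 tested cofactors and antagonists of SRF and myocardin, 0 were called in any of the 12 comparisons, and the smallest p for AngII+BAI against AngII was that of Hey2, a Notch target that holds back the contractile genes, with a log2 fold change of -0.81 (SE 0.25, adjusted p = 0.14). Among 21 tested genes of the RhoA and myosin phosphatase pathway 0 were called, the smallest p for AngII+BAI against AngII being that of Rnd3, a RhoA antagonist, with -0.97 (SE 0.27, adjusted p = 0.11). Without AngII+BAI 3 and 5, 2 of the 21 were called lower for AngII+BAI against AngII, Limk2, a kinase of cofilin, with -0.73 (adjusted p = 0.0162) and Prkca, a protein kinase C, with -0.89 (adjusted p = 0.0387), beside 0.771% of all genes. Of 20 other thin and thick filament genes, 1 was called in 1 comparison, Tpm4, a tropomyosin of non-muscle cells, which was higher in AngII+BAI than in Control with 1.05 (SE 0.25, adjusted p = 0.039). Of 28 focal adhesion and dense plaque genes, Lims1, the adhesion adaptor PINCH1, was called higher in AngII+BAI than in Control with 1.78 (SE 0.31, adjusted p = 0.0099), and none was called lower. In that comparison 1.10% of all genes were called higher. With AngII+BAI 3 and 5 left out, neither Tpm4 nor Lims1 passed the threshold, at 0.65 for Tpm4 (adjusted p = 0.196) and 1.59 for Lims1 (adjusted p = 0.0695), beside 0.250% of all genes. Leaving out 1 library at a time, Lims1 was called in 10 of 10 fits and Tpm4 in 3 of 10. For AngII against Control, Lims1 had 1.59 (SE 0.31, adjusted p = 0.072), and for AngII+ETH against Control 1.57 (SE 0.31, adjusted p = 0.13).

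The last list held 16 genes known to be raised when smooth muscle leaves the contractile state. For AngII against Control 16 of 16 were above 0, with a median log2 fold change of 0.56 beside 0.11 for all genes, and 0 were called. The smallest p was that of Thbs1, thrombospondin 1, with 1.58 (SE 0.53, adjusted p = 0.27). For AngII+BAI against Control 15 of 16 were above 0, with a median of 0.76 beside 0.09 for all genes, and 2 were called higher, namely Spp1, osteopontin, with 4.66 (SE 0.94, adjusted p = 0.028) and Lgals3, galectin-3, with 2.09 (SE 0.42, adjusted p = 0.028). Both are also made by macrophages, whose markers were highest in AngII+BAI 3 and 5, and the part of macrophages in these calls was not tested. Without those libraries 13 of 16 were above 0 with a median of 0.92, Spp1 was at 3.18 (adjusted p = 0.134) and Lgals3 at 1.74 (adjusted p = 0.112), both no longer called, and S100a4, a calcium-binding protein, was the 1 called, higher with 2.47 (adjusted p = 0.0480). Leaving out 1 library at a time, Spp1 was called in 4 of 10 fits and Lgals3 in 3 of 10. For AngII+GAS against AngII and AngII+VAL against AngII, 13 of 16 were below 0 in each, with a median of -0.30 in each and 0 called, beside -0.17 and -0.12 for all genes in the same order. For AngII+ETH against Control 16 of 16 were above 0, with a median of 0.88 beside 0.02 for all genes. For AngII+GAS and AngII+VAL against Control 14 of 16 were above 0 in each. Their medians were 0.38 and 0.37, beside -0.05 and -0.01 for all genes. None was called in these comparisons with Control. Fibroblast markers moved alongside this list in some comparisons and apart from it in others. All 8 were listed and none was at 0 in any library, and Pdgfra stands on both lists. For AngII against Control 8 of 8 were above 0, with a median of 0.58, and for AngII+GAS and AngII+VAL against AngII 8 of 8 were below 0, with medians of -0.48 and -0.55, none past the threshold. For AngII+BAI against AngII 11 of the 16 genes of the list were above 0, with a median of 0.16. There 8 of 8 fibroblast markers were below 0, with a median of -0.41. For AngII+BAI against Control 4 of 8 fibroblast markers were above 0, with a median of 0.07. Their sum ranged over 1014 to 2194 FPKM in AngII+ETH, 523 to 2593 in AngII+BAI, 873 to 1634 in AngII+GAS, 782 to 1416 in AngII+VAL, 1343 to 2289.9 in AngII and 926 to 1369.9 in Control. The part of fibroblasts in the values of the list was not tested.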

How the data were processed

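Total RNA of abdominal aorta was depleted of ribosomal RNA and made into libraries with a NEBNext kit, per the labels' protocols. The deposited values are FPKM per transcript, 1 table per library; the unit was read from the values, and no normalization beyond length and depth is recorded. The genome build mm10 and limma are named in the submitters' processing notes; the aligner, assembler and quantifier are not given in the sources used here. No source states that strand was used, so overlapping and antisense genes, and paralogs such as Acta2 and Actg2 or Rock1 and Rock2, can share reads. Reads are not unique molecules, so the read floor covers counting error only.

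Ensembl transcripts were matched to GENCODE M21 (33638 of 33677), and FPKM of the 27797 annotated transcripts listed in all 30 files were summed over 14379 genes. The sums took in every annotated transcript type, also retained-intron and processed transcripts. The test took in genes that reached 1 FPKM in 5 or more libraries (13223, all 35 members among them). log2(FPKM + 1) was fitted with limma 3.58.1 in R 4.3.3 (1 mean per group, all 30 libraries, trended and robust variance, 24 residual degrees of freedom), two-sided, with Benjamini-Hochberg adjustment over all tested genes in each of 12 comparisons and a threshold of 0.05. Low genes have their fold changes understated on this scale. Python 3.11.15 (pandas 2.3.3, numpy 2.4.6) served for summaries and matplotlib 3.10.9 for figures. The fit was tested on simulated data.

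Groups come from the labels, 5 libraries each, and replicate numbers follow accession order. Totals of 69.8 to 80.8 M reads were recovered from low FPKM, of which 98.6% to 99.6% were whole multiples of 1 read within 0.1. The members and lists were chosen with earlier results of these data known, so no p-value was adjusted over a list and no score was tested. Fold changes with their SE and adjusted p are given for members past the threshold, for members whose groups do not overlap, and for the 4 (main comparisons) or 2 (others) smallest p per comparison; a few other members were named after their values were seen. Alternatives were a pseudocount of 0.1, no filter, quantile normalization, equal sums outside the mitochondrial genome, transcripts not listed set to 0, fits of 2 groups alone, array weights, and leaving out libraries. The array weight, the weight of a library in that fit, was lowest in AngII+BAI 1, at 0.21. AngII+BAI 3 and 5 were at 0.26 and 0.32, and the fits without them kept AngII+BAI 1. Promoter windows are from RefSeq, GRCm38.p6.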

Additional observations from a re-analysis of the deposited data

Results flagged for a closer look

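Of 210 sets of 5 libraries (35 members in 6 groups), 25 had a highest or lowest library whose gap to its nearest neighbour was over 0.71 of the range of the set. Chance marks about 1 in 20 sets of normally distributed values. The sets reuse the same 30 libraries, the members vary together and FPKM is skewed. The count of 25 therefore cannot show an excess over chance. AngII+GAS 5 was the high library for 9 members, with Acta2 at 7433, Myh11 at 861, Tagln at 2729, Cnn1 at 555, Lmod1 at 145, Synm at 15.1, Synpo2 at 77.5, Fhl1 at 362 and Fhl2 at 22.6 FPKM. AngII+ETH 4 was the high library for 5 members, with Cnn2 at 83.6, Lmod1 at 140.2, Synpo2 at 61.2, Csrp1 at 1017 and Srf at 23.8 FPKM. AngII+BAI 1 was high for Pgm5 at 24.9 FPKM and Rock2 at 31.9 FPKM, and AngII+BAI 3 for Des at 258 FPKM. AngII+VAL 2 was high for Ppp1r12b at 23.1 FPKM and AngII+VAL 5 for Itga8 at 201.6 FPKM. AngII 2 was high for Fhl2 at 45.1 FPKM, while AngII 4 was low for Tagln at 1378 FPKM and AngII 5 low for Tns1 at 33.2 FPKM. Control 1 was high for Ppp1r12b at 17.2 FPKM and Control 5 for Pgm5 at 36.5 FPKM, and Control 4 was low for Pdlim5 at 4.67 FPKM.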

How the results depend on the processing

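The median of the members kept its sign in 206 of 218 alternatives. It turned without AngII+BAI 3 and 5 for AngII+BAI against Control (0.04, beside -0.48 with all libraries), against AngII+ETH (0.03, beside -0.48) and against AngII+GAS (0.25, beside -0.32). For AngII+BAI against AngII+GAS it was also 0.08 with array weights. It was 0.41 with AngII 2 and AngII+GAS 5 also left out, both omissions being choices made after seeing the data. Leaving out 1 library at a time, it ranged from -0.74 to -0.34 for AngII+BAI against AngII, from -0.58 to -0.25 for AngII+BAI against Control, from -0.46 to 0.0086 for AngII+BAI against AngII+GAS, and across 0 also for AngII+ETH against AngII and for AngII+ETH and AngII+VAL against Control. No member was called in 217 of 218 alternatives over the 12 comparisons, a count that starts at 0 and says little of stability, since over all genes the calls ran from 0 to 159 for AngII against Control (64 with array weights), 0 to 264 for AngII+BAI against AngII, 0 to 337 for AngII+GAS against AngII (232 with array weights), 5 to 954 for AngII+BAI against Control and 0 to 1293 for AngII+BAI against AngII+GAS. For AngII+BAI against Control, leaving out 1 library at a time gave 0 to 5 members called. The 5 were called without AngII+BAI 2, when Ppp1r12a was at -1.12 (adjusted p = 0.0168) and Synpo2 at -1.24 (adjusted p = 0.0255), and the cause was not tested. The Ppp1r12a sum leaves out a transcript that averaged 6.68 FPKM in AngII+BAI and 0 in each other group. It holds a retained-intron transcript that averaged 6.475 FPKM in AngII+BAI and 0.581 in Control. For AngII+BAI against AngII+GAS, Myh11 was at 0.056 and Mylk at 0.053 without AngII+BAI 3 and 5, and at 0.28 and 0.23 with AngII 2 and AngII+GAS 5 also left out. No paired analysis was possible because the labels carry no replicate numbers that groups share. Myocd, at a mean of 0.765 FPKM, and Rock2, listed at 0 in 7 libraries, limit what a fold change says of them. The Myocd sum also holds no protein-coding transcript.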

Other observations

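Ratios between members within a library do not depend on how that library was scaled; 10 such ratios were computed after the levels were known, and none was tested. The ratio of Tagln to Acta2 was 0.365 to 0.492 in AngII+ETH, 0.309 to 0.401 in AngII+BAI, 0.356 to 0.452 in AngII+GAS, 0.294 to 0.371 in AngII+VAL, 0.377 to 0.496 in AngII and 0.279 to 0.332 in Control. The ratio of Mylk to Ppp1r12a, kinase to phosphatase subunit, was 5.61 to 11.1 in AngII+ETH, 5.66 to 8.63 in AngII+BAI, 6.42 to 8.92 in AngII+GAS, 6.36 to 10.46 in AngII+VAL, 5.25 to 8.81 in AngII and 4.78 to 6.00 in Control. Ppp1r12a in this ratio leaves out the transcript that averaged 6.68 FPKM in AngII+BAI and 0 in each other group. It holds the retained-intron transcript that averaged 6.475 FPKM in AngII+BAI and 0.581 in Control. The ratio of Acta2 to Myh11 was 7.95 to 15.9 in AngII+BAI, against 6.496 to 8.24 in AngII, with AngII+BAI 1 highest. The ratio of Cnn1 to Cnn2 had its lowest value, 0.929, in AngII+BAI 5 and its highest, 8.08, in AngII+BAI 1, over the 30 libraries.

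Rgs5, a pericyte and smooth muscle regulator of G-protein signalling, had a log2 fold change of -1.41 (SE 0.39, adjusted p = 0.10 with limma) for AngII+BAI against AngII. The pericyte markers summed to 198 to 483 FPKM in AngII+BAI, 369 to 1183 in AngII and 421 to 953 in Control. AngII+BAI 3 and 5 held the lowest sums, 198 and 286 FPKM. The median log2 fold change of these markers against AngII was -0.55, or -0.32 without AngII+BAI 3 and 5. Against Control it was -0.40, or 0.15 without those libraries.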
